A study of Homo sapiens with 18 samples.

Results

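The 10 genes described here encode matricellular and fibronectin-type glycoproteins of the extracellular matrix: FN1, TNC, THBS1, THBS2, POSTN, SPARC, TGFBI, CCDC80, FBN1 and FBN2. They were chosen by symbol as a protein class, with earlier results of these data known, so counts and medians over the 10 are a description. Each symbol matched 1 of the 58336 gene identifiers in the count tables. RNA sequencing of stranded messenger RNA libraries measured their transcripts in TC-32, TC-71 and A673, established Ewing sarcoma cell lines. Ewing sarcoma is a tumour of bone or soft tissue, and these lines carry a fusion of EWSR1 to the ETS factor gene FLI1. Each line gave 3 libraries after transfection with a small interfering RNA directed at FLI1 (siFLI1), whose target the fusion transcript shares. It gave 3 more after transfection with a negative control (siNeg). Each RNA was a single product, used at 20 nM. The 18 libraries thus formed 6 groups of 3. TC-32 and TC-71 were grown in RPMI and A673 in DMEM, with serum in all groups. Column names give 48 h for TC-32 and TC-71 and no time for A673. The labels do not say whether the libraries of a group came from separate cultures, so p-values measure the spread between these libraries, which may be technical.

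Fibronectin, encoded by FN1, is secreted as a dimer and pulled into fibrils by cell surface integrins, and other matrix proteins assemble on those fibrils. The matricellular proteins (tenascin-C from TNC, thrombospondins from THBS1 and THBS2, periostin from POSTN, SPARC and the transforming growth factor beta-induced protein from TGFBI) sit in the matrix but mainly modify adhesion, growth factor activity and collagen assembly. Fibrillins, from FBN1 and FBN2, polymerise into the microfibrils that carry elastin and hold latent transforming growth factor beta. These genes are widely used by mesenchymal cells.

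Total counts per library ran from 114564479 to 120993595 for A673, from 24102487 to 33669271 for TC-32 and from 19685354 to 37234528 for TC-71. The level of FLI1 in siFLI1 was 48.9% of that in siNeg for TC-32, 35.9% for TC-71 and 23.6% for A673, so the depth of the knockdown was not the same in the 3 lines. Of 7 Ewing sarcoma markers, each one tested was called lower (edgeR adjusted p under 0.05) in every line (7, 6 and 7 genes in TC-32, TC-71 and A673). Of all genes tested, 40.1%, 35% and 35% were called lower. CD99 was listed at 0 in all TC-71 libraries. The summed level of 3 leukocyte, 3 endothelial and 3 epithelial markers never passed 12.9 CPM (counts per 1000000 counts) for any of these lists in any library. The sum of 5 fibroblast markers was 121 to 125 CPM in siNeg and 325 to 347 in siFLI1 in TC-32, 60.5 to 65.7 and 180 to 193 in TC-71, and 177 to 184 and 179 to 212 in A673. By gene, 5 of 5 tested fibroblast markers were called higher in TC-32, 3 of 4 in TC-71 and 3 of 5 in A673. Of all genes tested, 41.3%, 36.8% and 36% were called higher. THY1 fell in TC-71 and A673. None of the 5 fibroblast markers was at 0 in any group, and their part in the results on matrix genes was not tested. In bulk samples, fewer cells of a type and less RNA per cell cannot be told apart.

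With siFLI1, 9 of the 10 genes rose in TC-32, 10 in A673 and 7 in TC-71, and 0 fell in any line. Tests were edgeR quasi-likelihood fits of the whole table of each line, and a gene was called at a Benjamini-Hochberg adjusted p under 0.05. The background was high. Of all genes tested, 41.3% were called higher and 40.1% lower in TC-32, 36.8% and 35% in TC-71, and 36% and 35% in A673. The exception in TC-32 was TNC. In TC-71, 7 of the 10 genes passed the filter on low counts, and THBS2, POSTN and FBN2 did not. The median log2 fold change was 3.53 over the 10 genes in TC-32, against 0.022 over all genes tested, and 2.41 against -0.00056 in A673. In TC-71 it was 5.06 over the 7 genes that passed, against 0.018. The filter asks for counts in as many libraries as 1 group holds, so siFLI1 alone can carry a gene past it. THBS1 and TGFBI in TC-71, and THBS2 and POSTN in TC-32, held few siNeg counts and passed through siFLI1. Such genes could hardly enter except as higher, which can raise these counts and medians. With library size alone as the scaling, 40.9% of the genes called in A673 were higher in place of 50.7%, and the median of all genes moved to -0.109, while each of the 10 matrix genes was still called higher.

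**Figure D1:**
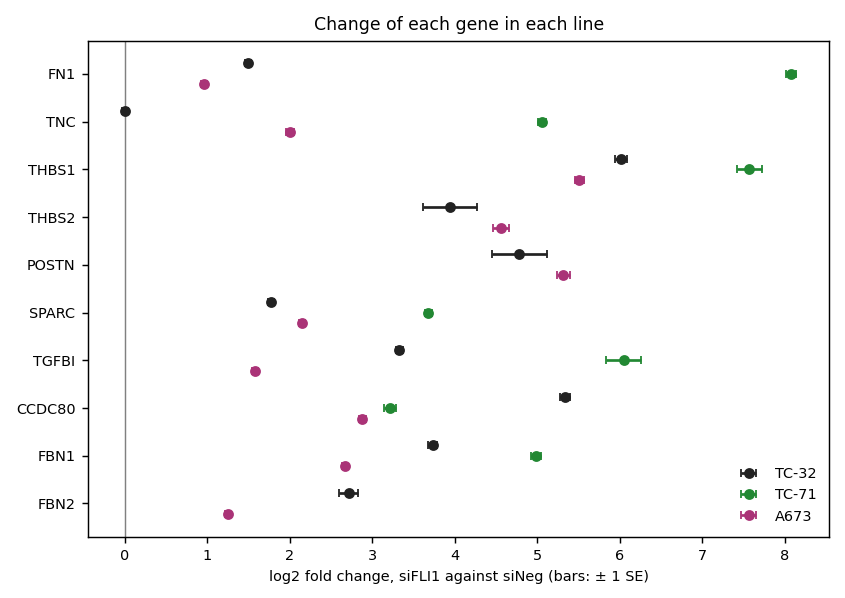
Log2 fold change of each gene in siFLI1 against siNeg (horizontal axis) for TC-32 (black), TC-71 (green) and A673 (purple). Bars are 1 standard error, derived from the F statistic, and can be too narrow where counts are few. THBS2, POSTN and FBN2 were not tested in TC-71. The points lie right of 0 except TNC in TC-32 at 0.0019, and FN1 in TC-71 lies farthest right at 8.07.

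**Figure D2:**
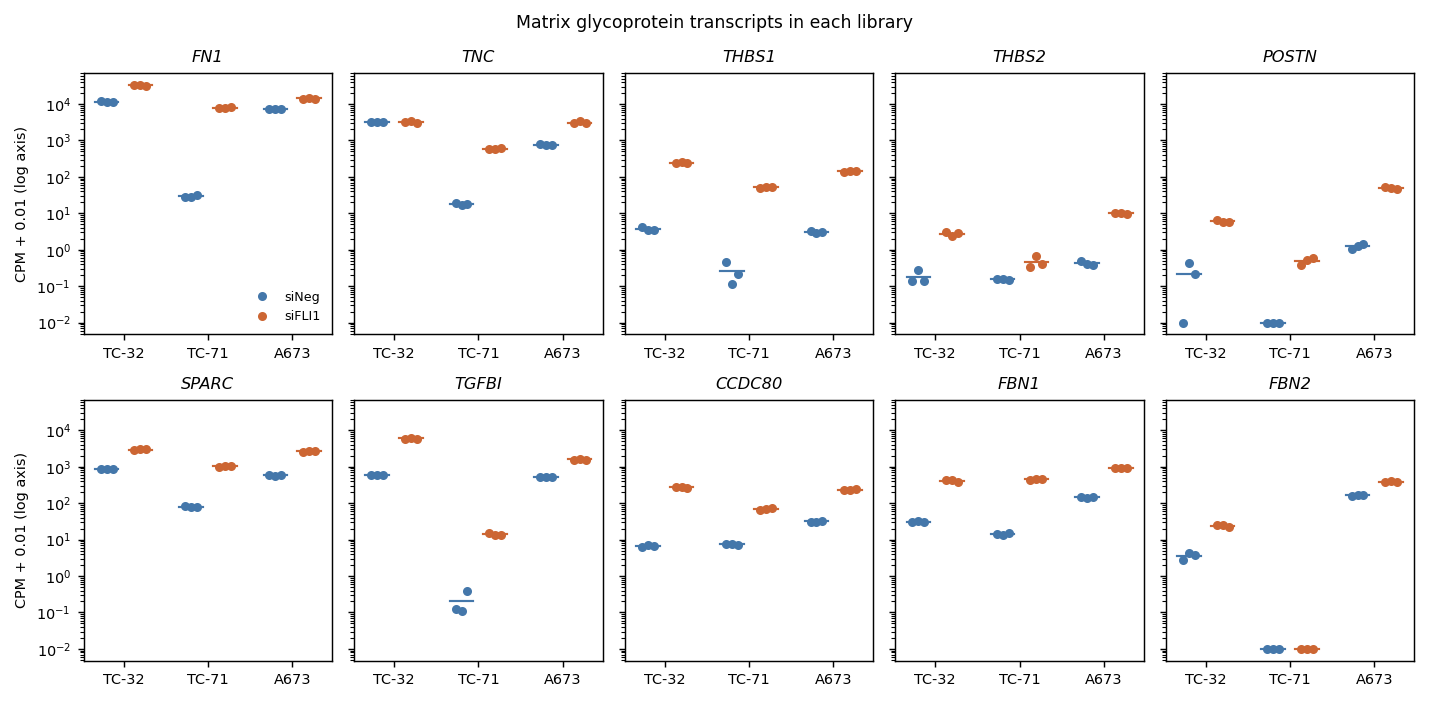
CPM plus 0.01 (vertical log axis) in each of the 18 libraries, in 1 panel per gene, with siNeg in blue, siFLI1 in orange and a horizontal line at the mean of 3 libraries. The siNeg libraries of TC-71 lie near the bottom for TGFBI, THBS1 and POSTN, and FBN2 is at 0 in all 6 TC-71 libraries.

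Promoter sequences of all 10 genes, from 250 bases before to 50 after the start, were found by symbol among the RefSeq promoters of GRCh38.p14. They were searched on both strands for GGAA, the core that ETS factors recognise, and for GGAAGGAA, the shortest repeat of it. GGAATG, the letters read by TEAD factors, TGANTCA, read by AP-1, and TATAAA were searched as well. Each GGAATG and each GGAAGGAA contains a GGAA. GGAA was in 10 of the 10 promoters, and in 95.5% of all 35116 promoters. GGAATG was in 4 of the 10 (THBS1, THBS2, SPARC and FBN1), and in 14% of all promoters. GGAAGGAA was in 2 (TNC and FBN2), and in 3.67% of all. TATAAA was in 2 (THBS2 and POSTN), and in 11.5% of all, and TGANTCA in 1 (POSTN), and in 7.71% of all. The CArG box, read by serum response factor, was in 0 of the 10 and in 1.29% of all. The stretches that follow are shown because they hold these letters before the RefSeq start of genes whose values follow. For THBS2, FBN1 and FBN2 that start lies inside the gene as GENCODE release 44 places it, so the stretch does not precede the outermost GENCODE start. They are written 5′ to 3′ on the strand of the gene, with the matched letters in capitals. A match is a description of the letters only.
THBS1, chr15:39580969-39581078, plus strand, ending 1 base before the start: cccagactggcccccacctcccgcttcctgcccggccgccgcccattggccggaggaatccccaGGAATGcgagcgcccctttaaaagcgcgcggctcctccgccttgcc
THBS2, chr6:169253897-169253956, minus strand, from 110 to 51 bases before the start: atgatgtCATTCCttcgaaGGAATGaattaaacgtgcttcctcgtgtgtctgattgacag
FBN1, chr15:48644971-48645080, minus strand, ending 1 base before the start: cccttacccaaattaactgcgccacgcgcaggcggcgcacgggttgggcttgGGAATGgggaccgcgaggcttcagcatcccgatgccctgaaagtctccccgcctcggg
TNC, chr9:115118302-115118361, minus strand, from 204 to 145 bases before the start: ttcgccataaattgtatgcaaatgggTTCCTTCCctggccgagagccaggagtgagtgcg
FBN2, chr5:128538421-128538480, minus strand, from 235 to 176 bases before the start: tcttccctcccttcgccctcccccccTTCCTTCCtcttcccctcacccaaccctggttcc
THBS1, THBS2 and FBN1 carry GGAATG on the strand of the gene. THBS2 holds it on the opposite strand too, farther from the start. In TNC and FBN2 the repeat lies on the opposite strand, so the stretch shown, on the strand of the gene, holds its reverse complement.

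FN1 (ENSG00000115414.18), whose product is the fibronectin dimer of the provisional matrix, lies on chromosome 2 from 215360440 to 215436073 on the minus strand. Positions of genes are those of GENCODE release 44 (GRCh38). In TC-71 the siNeg libraries held 28.1, 27.6 and 32 CPM (scaled by TMM within the line) and the siFLI1 libraries 7568, 7973 and 8163. The rise was 270.5-fold between the means, and the log2 fold change (8.07, SE 0.0601, edgeR adjusted p = 6.16e-36) was larger than for 99.8% of the genes tested in that line. In TC-32 FN1 was already at 11990, 11500 and 11200 CPM in siNeg and reached 32510, 33080 and 31860 in siFLI1. That is a 2.81-fold rise (log2 fold change 1.49, SE 0.0356, edgeR adjusted p = 6.31e-22). In A673 it went from 7331, 7272 and 7313 CPM to 13910, 14710 and 14060. That is a 1.95-fold rise (log2 fold change 0.96, SE 0.0315, edgeR adjusted p = 1.55e-12). The groups did not overlap in any line, and the line with the lowest control level had the largest rise. The share of all genes without such overlap is not given here, for FN1 or for the genes below. Groups that lie apart are therefore not read as particular to them.

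TNC (ENSG00000041982.15; chromosome 9, 115019575 to 115118207, minus strand) encodes tenascin-C, which weakens adhesion to fibronectin. Its response was not the same in the 3 lines. In TC-32 the siNeg libraries held 3238, 3114 and 3277 CPM and the siFLI1 libraries 3209, 3346 and 3086, and the groups overlapped. The log2 fold change there was 0.0019 (SE 0.0374, edgeR adjusted p = 0.964). In A673 TNC rose from 808, 768 and 745 CPM to 2956, 3335 and 3023 (log2 fold change 2.00, SE 0.0467, edgeR adjusted p = 3.32e-14). TC-71 went from 18.7, 16.9 and 17.6 CPM to 577.5, 599.7 and 601.5 (log2 fold change 5.06, SE 0.0532, edgeR adjusted p = 1.42e-33). With all 18 libraries scaled together, TNC in siFLI1 stood at 3408 CPM in A673, 3510 in TC-32 and 507 in TC-71. The exons of TNC share 1.35% of their bases with DELEC1 on the opposite strand.

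THBS1 (ENSG00000137801.10; chromosome 15, 39581079 to 39599466, plus strand) encodes thrombospondin-1, an activator of latent transforming growth factor beta and an inhibitor of angiogenesis. It was low in the controls of every line and rose in all 3. In TC-32 it went from 4.23, 3.51 and 3.58 CPM to 245.9, 250.4 and 236.5, a 64.8-fold rise between the means (log2 fold change 6.02, SE 0.0704, edgeR adjusted p = 9.91e-28). In A673 it went from 3.27, 2.92 and 3.09 CPM to 136, 146 and 142, a 45.6-fold rise (log2 fold change 5.51, SE 0.0545, edgeR adjusted p = 8.33e-18). In TC-71 the siNeg libraries held 12, 2 and 6 counts and the siFLI1 libraries 1184, 1366 and 1971. The log2 fold change in TC-71 was 7.57 (SE 0.151, edgeR adjusted p = 1.04e-26). It became 8.24 without siNeg replicate 1, which held the 12 counts. The log2 fold change of THBS1 was larger than that of 98.8% of the genes tested for TC-32, 99.8% for TC-71 and 99.1% for A673. Its exons share 7.58% of their bases with FSIP1 and THBS1-AS1 on the opposite strand.

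THBS2 (ENSG00000186340.14; chromosome 6, 169215780 to 169254050, minus strand) encodes thrombospondin-2, which acts in collagen fibril assembly. It rose in TC-32 and A673, from few counts. In A673 it went from 0.473, 0.401 and 0.379 CPM to 10.1, 10.1 and 9.49, a 23.7-fold rise (log2 fold change 4.56, SE 0.0990, edgeR adjusted p = 1.5e-14). In TC-32 the siNeg libraries held 3, 7 and 3 counts and the siFLI1 libraries 82, 80 and 83 (log2 fold change 3.95, SE 0.326, edgeR adjusted p = 4.23e-11). In TC-71 the siNeg libraries held 4, 3 and 4 counts and the siFLI1 libraries 8, 17 and 15, too few to pass the filter. With no filter the log2 fold change in TC-71 was 1.62 (edgeR adjusted p = 0.0109). The exons of THBS2 share 31.2% of their bases with THBS2-AS1 on the opposite strand, and whether the counting used strand is not given in the sources used here. Per kilobase of the canonical transcript, THBS1 stood 5.07 to 5.97 times above THBS2 in the A673 siNeg libraries and 9.89 to 10.9 times above it in siFLI1, so the ranges of this ratio did not overlap.

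POSTN (ENSG00000133110.14; chromosome 13, 37562583 to 37598844, minus strand) encodes periostin, a binding partner of integrins, tenascin-C and collagen in bone and tendon. In A673 it rose from 1.06, 1.26 and 1.39 CPM to 52.1, 48.3 and 47.6, a 39.9-fold rise (log2 fold change 5.32, SE 0.0774, edgeR adjusted p = 2.53e-16). In TC-32 the siNeg libraries held 0, 11 and 5 counts and the siFLI1 libraries 174, 195 and 170. The log2 fold change was 4.79 (SE 0.336, edgeR adjusted p = 2.85e-10) in TC-32. It was 4.22 without siNeg replicate 1, which held the 0, and 5.78 without siNeg replicate 2, which held the 11. In TC-71 POSTN had 0 counts in each siNeg library and 9, 13 and 22 in siFLI1. Set against a floor of 3 counts per library, the limit that a count of 0 allows, this was at least 3.97-fold higher. The siFLI1 libraries of each line were above every siNeg library, from low counts in TC-71.

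TGFBI (ENSG00000120708.16; chromosome 5, 136028988 to 136063818, plus strand) encodes an adhesion protein that shares its fasciclin-type domains with periostin and is a standard target of transforming growth factor beta. In TC-32 it rose from 580, 606 and 594 CPM to 5883, 6149 and 5878, a 10.1-fold rise (log2 fold change 3.33, SE 0.0388, edgeR adjusted p = 9.91e-28). The A673 libraries went from 536, 531 and 522 CPM to 1562, 1616 and 1576, a 2.99-fold rise (log2 fold change 1.58, SE 0.0314, edgeR adjusted p = 5.76e-15). TC-32 and A673 thus began at similar CPM and parted after siFLI1. In TC-71 TGFBI was nearly absent from the controls, with 3, 2 and 11 counts, and had 377, 360 and 512 counts in siFLI1. The log2 fold change in TC-71 was 6.05 (SE 0.211, edgeR adjusted p = 7.02e-21), and 6.99 without siNeg replicate 3, which held the 11 counts. Even after this rise, TGFBI reached only 14.3 ± 0.951 CPM in TC-71 (SD, n = 3). Per kilobase, TGFBI stood 458 to 614 times above POSTN in the A673 siNeg libraries and 36.5 to 40.7 times above it in siFLI1.

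SPARC (ENSG00000113140.10; chromosome 5, 151661096 to 151686975, minus strand) encodes a collagen-binding protein abundant in bone. In TC-32 it rose from 871, 881 and 857 CPM to 2917, 3021 and 2988 (log2 fold change 1.77, SE 0.0360, edgeR adjusted p = 2.57e-23). The A673 libraries went from 603, 575 and 595 CPM to 2591, 2628 and 2654 (log2 fold change 2.15, SE 0.0326, edgeR adjusted p = 3.65e-16). The TC-71 libraries went from 84.8, 79.6 and 76.5 CPM to 1002, 1034 and 1059 (log2 fold change 3.68, SE 0.0477, edgeR adjusted p = 2.68e-31). These are 3.42-fold, 4.44-fold and 12.8-fold rises, and the groups were apart in each line. Its exons share 4.12% of their bases with CLMAT3 on the opposite strand. Of the 10 genes, SPARC had the highest level per kilobase in the TC-71 controls, at 23.3 CPM per kilobase.

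CCDC80 (ENSG00000091986.15; chromosome 3, 112596797 to 112649530, minus strand) encodes a secreted matrix protein related to the sushi-repeat proteins SRPX and SRPX2. In TC-32 it rose from 6.28, 6.97 and 6.82 CPM to 270, 275 and 269, a 40.6-fold rise (log2 fold change 5.34, SE 0.0608, edgeR adjusted p = 6.35e-28). In TC-71 the controls were at about the same CPM, 7.46, 7.5 and 7.32, and siFLI1 gave 66.3, 67.8 and 72.4, a 9.27-fold rise (log2 fold change 3.21, SE 0.0717, edgeR adjusted p = 1.56e-25). The A673 libraries went from 31.4, 31.0 and 32.4 CPM to 228.9, 230.3 and 239.2, a 7.37-fold rise (log2 fold change 2.88, SE 0.0388, edgeR adjusted p = 1.23e-16). CCDC80 was the one gene of those tested in all 3 lines that had its largest log2 fold change in TC-32.

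FBN1 (ENSG00000166147.13; chromosome 15, 48408313 to 48645721, minus strand) encodes fibrillin-1, the main microfibril protein of adult tissue. In TC-32 it rose from 29.5, 32.7 and 31.0 CPM to 425, 427 and 392 (log2 fold change 3.74, SE 0.0532, edgeR adjusted p = 4.4e-26). The TC-71 libraries went from 14.2, 13.1 and 15.4 CPM to 424, 471 and 470 (log2 fold change 4.99, SE 0.0614, edgeR adjusted p = 2.48e-31). The A673 libraries went from 144, 142 and 145 CPM to 903, 926 and 908 (log2 fold change 2.67, SE 0.0323, edgeR adjusted p = 4.98e-17). FBN1 was the fibrillin gene that rose in every line, by 13.3-fold, 32-fold and 6.35-fold between the means. FBN2 (ENSG00000138829.11; chromosome 5, 128257909 to 128659185, minus strand) encodes fibrillin-2, which is used mostly in development. In A673 it rose from 162, 164 and 165 CPM to 385, 402 and 380 (log2 fold change 1.25, SE 0.0340, edgeR adjusted p = 1.92e-13). In TC-32 it rose from 2.72, 4.37 and 3.79 CPM to 25.02, 25.01 and 21.99 (log2 fold change 2.72, SE 0.117, edgeR adjusted p = 5.55e-16). In TC-71 FBN2 had 0 counts in all 6 libraries, which allows up to 0.0806 to 0.152 CPM. The balance of the fibrillins moved toward FBN1 per kilobase. The FBN1 level was 0.817 to 0.834 of the FBN2 level in A673 siNeg and 2.17 to 2.25 times it in siFLI1, and in TC-32 it went from 7.04 to 10.2 times to 16.0 to 16.8 times.

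Together, the 10 genes took 1.60% ± 0.0412 of all counts in TC-32 siNeg and 4.63% ± 0.0790 in siFLI1 (SD, n = 3). In A673 their share went from 0.991% ± 0.00726 to 2.24% ± 0.0640. In TC-71 it went from 0.0150% ± 0.000414 to 1.01% ± 0.0388. FN1 made up 70.1% to 71.7% of the 10 genes' counts in TC-32 siNeg and 71.01% to 71.46% in siFLI1. It went from 76.2% to 76.8% in A673 siNeg to 61.0% to 61.2% in siFLI1, and from 18.2% to 21.4% to 78.0% to 78.2% in TC-71. FN1 thus held a larger part of this group of transcripts in TC-71 after siFLI1, and a smaller part in A673. Per kilobase of the canonical transcript, FN1 was at rank 51 of 16103 ranked genes in TC-32 siNeg and 10 in siFLI1. It was at rank 38 of 18276 and then 18 in A673, and at rank 9923 of 16957 and then 42 in TC-71. TGFBI came to rank 19 in TC-32 siFLI1, and went from 16552 to 8815 in TC-71. The ranks depend on the length used: over the union of exons FN1 was at rank 15 in TC-32 siFLI1 and at 10843 in TC-71 siNeg.

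**Figure D3:**
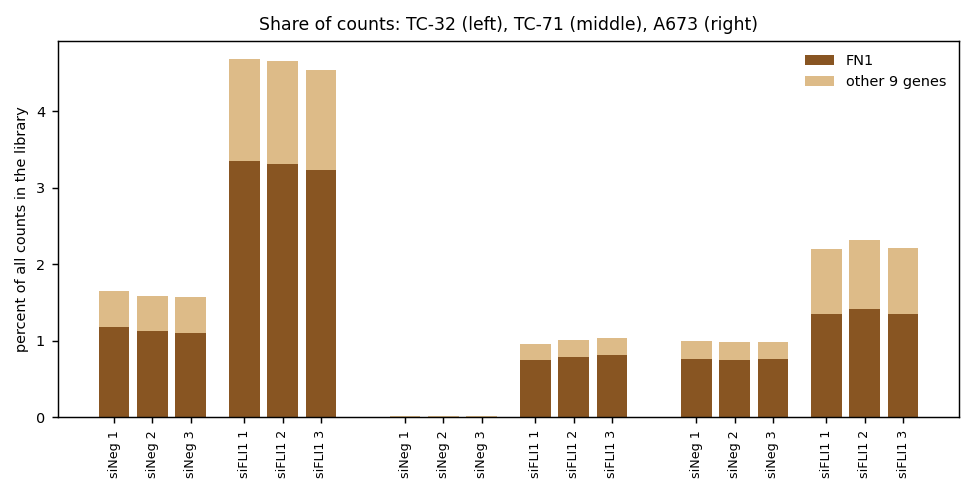
Percent of all counts in each of the 18 libraries that fell on FN1 (dark) and on the other 9 genes together (light), stacked, with TC-32 on the left, TC-71 in the middle and A673 on the right. The TC-71 siNeg bars, at 0.0145% to 0.0153%, are barely visible, and the TC-32 siFLI1 bars reach 4.54% to 4.69%.

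The next comparison set out the control level of each gene per line, with the 9 siNeg libraries scaled together. The lines were counted in separate tables, that of TC-71 with another tool, so that line, table, medium and counting cannot be told apart and no test was made. TC-71 had the lowest mean for each of the 10 genes, though not clearly so for THBS2, POSTN and CCDC80, as described after the other genes. The share of all genes with their lowest mean in TC-71 is not given here. The order is therefore not shown to be particular to these 10 genes. TC-32 was highest for FN1, TNC, THBS1, SPARC and TGFBI, and A673 was highest for THBS2, POSTN, CCDC80, FBN1 and FBN2. For FN1 the order was 12510 ± 422 CPM in TC-32, 7949 ± 53.2 in A673 and 25.5 ± 2.22 in TC-71 (SD, n = 3), so A673 stood 312 times above TC-71. For TNC it was 3475 ± 88.6, 842 ± 35.7 and 15.4 ± 0.785 CPM in the same order of lines. For TGFBI it was 643 ± 14.9, 576 ± 7.71 and 0.173 ± 0.140 CPM, a step of 1.12 times from A673 to TC-32. The TC-71 level rests on 3, 2 and 11 counts, so no ratio to it is given here. SPARC followed with 942 ± 13.9, 643 ± 17.0 and 70.0 ± 3.44 CPM, and THBS1 with 4.08 ± 0.426, 3.37 ± 0.199 and 0.219 ± 0.153 CPM.

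Among the genes highest in A673, FBN2 stood at 178 ± 1.01 CPM there, 3.93 ± 0.911 in TC-32 and 0 in TC-71. FBN1 stood at 156 ± 1.52, 33.6 ± 1.76 and 12.4 ± 1.05 CPM in A673, TC-32 and TC-71. CCDC80 stood at 34.4 ± 0.863, 7.24 ± 0.403 and 6.48 ± 0.0565 CPM. With library size alone as the scaling, the order of TC-32 and TC-71 for CCDC80 changed, so their levels are not told apart. POSTN stood at 1.35 ± 0.178 CPM in A673 and 0.226 ± 0.225 in TC-32, and its ranges in TC-32 and TC-71 met at 0. THBS2 stood at 0.454 ± 0.0540, 0.186 ± 0.0865 and 0.128 ± 0.00548 CPM, with 3, 7 and 3 counts in TC-32 and 4, 3 and 4 in TC-71, so these 2 lines are not told apart either. For the other genes and steps, neighbouring lines did not overlap in range. The share of all genes for which this holds is not given here either.

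Interaction contrasts tested if the siFLI1 effect was the same in 2 lines, in 1 model of the 18 libraries. Knockdown depth, medium, the time given and, for TC-71, the counting tool differ with the line. A difference between lines cannot be told apart from a difference in these. The contrasts share libraries with each other. Across all 19591 genes tested, 62.1% differed in the contrast of TC-32 with A673, 53.6% in that of TC-32 with TC-71 and 51.7% in that of A673 with TC-71. Of the 10 genes, 8 differed between TC-32 and A673. FN1, THBS1, TGFBI, CCDC80, FBN1 and FBN2 rose more in TC-32, and TNC and SPARC rose more in A673. The widest of these were CCDC80, with a log2 difference of 2.49 (SE 0.0746, edgeR adjusted p = 1.21e-24), and TNC, with -1.97 (SE 0.0592, edgeR adjusted p = 1.35e-24). For THBS2 the difference was -0.57 (SE 0.440, edgeR adjusted p = 0.28) and for POSTN -0.49 (SE 0.478, edgeR adjusted p = 0.408). Both rest on few TC-32 siNeg counts. Without TC-32 siNeg replicate 1 the differences were -0.74 and -1.04, the latter past the threshold (edgeR adjusted p = 0.0367), and without replicate 2 they were -0.097 and 0.54 (adjusted p = 0.507 for POSTN). The lines are thus not shown to act alike or to differ. Between TC-71 and each other line, the 7 genes tested in all lines differed (7 of 7 in both contrasts). The rise was larger in TC-71 than in A673 for all 7, and larger than in TC-32 for 6. CCDC80 was the exception, with 2.12 more in TC-32 (SE 0.0941, edgeR adjusted p = 1.32e-19). The difference for FN1 between TC-32 and TC-71 was -6.59 (SE 0.0634, edgeR adjusted p = 1.08e-38).

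The spread of levels between lines was then set out with the 18 libraries scaled together, as the ratio of the highest to the lowest line. Here too, line cannot be told apart from table, medium, counting and, in siFLI1, knockdown depth. For 7 of the 8 genes with counts in every group, the spread was narrower in siFLI1 than in siNeg. For FN1 it went from 507 to 5.25, for TNC from 3423 against 14.8 CPM to a ratio of 6.92 and for TGFBI from 3828 to 532. The siNeg value of TGFBI rests on 3, 2 and 11 counts in TC-71, and it was 7176 without TC-71 siNeg replicate 3. For THBS1 it went from 19.2 to 6.08, with 31.2 in siNeg without TC-71 siNeg replicate 1, where the 3 libraries held 12, 2 and 6 counts. It went for SPARC from 13.9 to 3.68, for FBN1 from 13.3 to 2.57 and for CCDC80 from 5.61 to 5.04. THBS2 was the exception, going from 3.76 to 27.6. Leaving out each library in turn, a check chosen after the data were seen, kept each of these directions. POSTN and FBN2 gave no ratio in siNeg because TC-71 was at 0. Of all 14206 genes with counts in every group, 44.9% had a narrower spread in siFLI1. Among the 521 of these whose siNeg spread was at least 5 on the log2 scale, as for FN1, TNC and TGFBI, 79.7% were narrower, so a narrower spread is common among genes that start far apart. Between TC-32 and A673 alone, the gap narrowed for 5 of the 10 genes (TNC, SPARC, CCDC80, FBN1 and FBN2), and for 37.9% of all genes. For TNC it closed from 4.03 times to 1.03 times, while for TGFBI it opened from 1.09 times to 3.75 times.

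**Figure D4:**
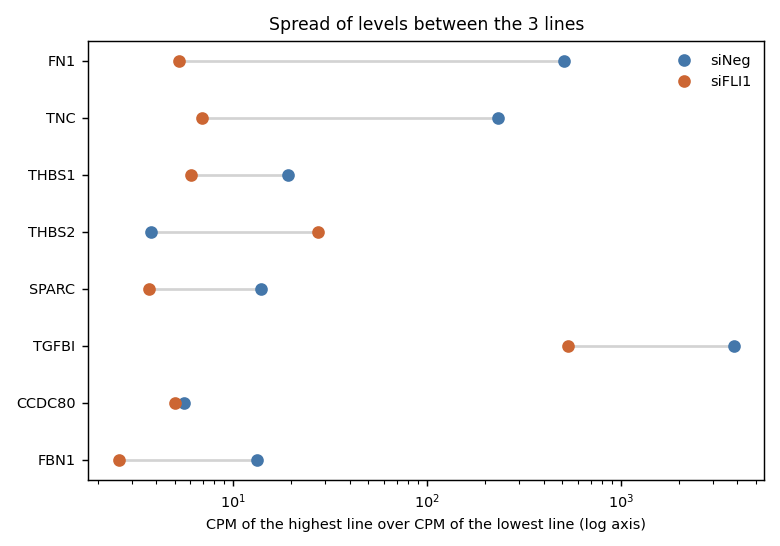
Ratio of the CPM of the highest line to that of the lowest line (horizontal log axis) for the 8 genes with counts in all groups, with siNeg in blue, siFLI1 in orange and a grey line joining them. For FN1 the ratio moves from 507 to 5.25, and for THBS2 it moves the other way, from 3.76 to 27.6.

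Other genes of the matrix were counted from 8 lists of 57 genes that hold relatives, partners, receptors and processing enzymes of the 10. These lists too were chosen with earlier results of these data known, so their counts and shares are a description. In TC-32, 49 of the 52 tested rose and 1 fell. In TC-71, 36 of 43 rose and 2 fell, and in A673, 41 of 50 rose and 4 fell. Of the 41 tested in all 3 lines, 29 rose in each, or 70.7%, against 19% of all 14233 genes so tested. The median log2 fold changes were 2.13, 1.63 and 1.40, against 0.022, 0.018 and -0.00056 over all genes. The lists that rose in full among the genes tested in every line were the CCN family, the CCDC80 relatives and the tenascins, from 1 to 5 genes each. These counts read against the shares called higher given above, which were taken with the same filter. Some genes of the lists passed that filter through siFLI1 alone and could hardly enter except as higher. Examples are SMOC1 and CCN4 in TC-32, with at most 2 and 1 siNeg counts, and SPARCL1 in TC-71, with 0.

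Among relatives of the 10 genes, TNXB, which encodes tenascin-X, rose by 2.90 in TC-32, 0.80 in A673 and 0.82 in TC-71 on the log2 scale. Of the thrombospondin list, THBS3 rose by 1.80, 1.98 and 1.2, with 29.1% of its exon bases shared with MTX1 and THBS3-AS1 on the opposite strand. COMP, the cartilage thrombospondin, rose by 4.32 in TC-32 and 1.39 in A673, from under 1 CPM, and had 0.44 in TC-71 (edgeR adjusted p = 0.251). THBS4 rose in TC-32 by 2.20, from 0.291 CPM and at most 12 counts in siNeg. It had -0.07 in TC-71 and -0.12 in A673 (edgeR adjusted p = 0.662 and 0.563). Of the 7 SPARC family genes, 4 of 6 tested rose in TC-32, 3 of 4 in TC-71 and 4 of 5 in A673. The other gene tested in A673, SMOC2, named after its value was seen, fell there (-0.41). FSTL1, a secreted glycoprotein, rose from 403 to 1461 CPM in A673, from 284 to 1261 in TC-32 and from 259.6 to 869 in TC-71. The testican gene SPOCK1 rose by 1.91, 1.63 and 3.19, and SPOCK2 by 4.38 in TC-32 and 1.54 in A673, with 0.10 in TC-71 (edgeR adjusted p = 0.558). SPOCK2 held at most 5 siNeg counts in TC-32.

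The CCN family holds matricellular proteins, and 5, 3 and 4 of its 6 genes were tested and rose in TC-32, TC-71 and A673. CCN2 rose from 60.4 to 1093 CPM in A673, from 62.5 to 179 in TC-32 and from 4.50 to 407 in TC-71 (log2 fold changes 4.18, 1.52 and 6.52). CCN2 shares 11.9% of its exon bases with LINC01013 on the opposite strand. In TC-32, TC-71 and A673, CCN1 rose by 2.08, 4.74 and 3.45, and CCN3, at most 6.93 CPM in any group mean, by 3.56, 4.30 and 4.88. CCN3 held at most 2 siNeg counts in TC-32 and 9 in TC-71. The largest list, 19 genes of microfibrils and elastic fibres, rose in full in TC-32 (19 of 19), with 13 of 15 in TC-71 and 12 of 18 in A673. Some of the 19, such as FBLN2 with at most 3 siNeg counts, passed the filter in TC-32 through siFLI1 alone. In the order TC-32, TC-71, A673, the named genes follow. LTBP2 rose by 5.996, 4.42 and 3.48, LTBP1, which tethers latent transforming growth factor beta, by 3.27, 3.86 and 3.43, and THSD4 by 1.08, 3.98 and 2.65. The genes of this list that fell are named after their values were seen. They were ELN, the gene of elastin, in TC-71 (-0.53) and A673 (-0.33), and LTBP4 (-0.18) and ADAMTS10 (-0.48) in A673.

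Of the CCDC80 relatives, SRPX rose by 2.43, 0.71 and 2.74 and SRPX2 by 1.42, 3.26 and 1.40, in the order TC-32, TC-71, A673. SRPX2 shares 52% of its exon bases with SYTL4 on the opposite strand. Among 13 receptors of these proteins, 10 of 11 tested rose in TC-32, 10 of 11 in TC-71 and 11 of 12 in A673. ITGB3, a chain of the receptor for fibronectin, thrombospondin and other ligands, rose from 0.279 to 30.5 CPM in TC-71 (log2 fold change 6.69), from 0.0968 to 4.71 in A673 (5.59) and from 0.0546 to 0.471 in TC-32 (3.02). These rises rest on at most 11, 16 and 2 siNeg counts in the same order of lines, and 1 siFLI1 library of TC-32 held 13. ITGA4 rose by 3.23, 1.90 and 1.76 in the order TC-32, TC-71, A673, and SDC4, a heparan sulfate co-receptor for fibronectin, by 2.40, 0.88 and 2.85. ITGB3 shares 33.2% of its exon bases with another gene on the same strand, and ITGA4 26.4% with CERKL on the opposite strand. ITGB5, named after its value was seen, fell in TC-32 by 0.67 on the log2 scale and rose in the other lines. Of 4 processing and cross-linking genes, TGM2, which cross-links fibronectin, rose from 2.62 to 68.7 CPM in A673, from 1.49 to 337 in TC-32 and from 1.25 to 419.8 in TC-71. In the order TC-32, TC-71, A673, BMP1, a procollagen proteinase, rose by 2.48, 2.77 and 2.66. FURIN, which cleaves fibrillin precursors, rose by 0.71, 1.39 and 0.54 in the same order. TLL1, named after its value was seen, fell in TC-71 (-0.82).

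**Figure D5:**
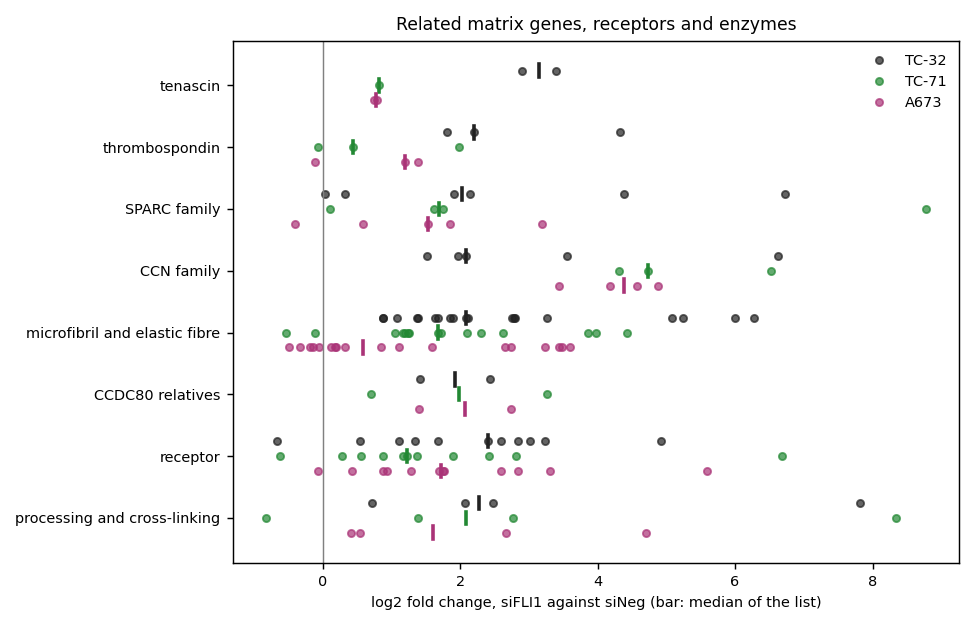
Log2 fold change in siFLI1 against siNeg (horizontal axis) of each tested gene of the 8 lists, with TC-32 in black, TC-71 in green and A673 in purple and a short bar at the median of each list. Most points lie right of 0, and the A673 points of the microfibril list reach from -0.48 to 3.60.

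To show which genes followed a similar course, the 6 group means of log2 CPM were centred on their own mean and compared with those of 12097 genes. The measure was the root mean square difference over the 6 groups, and a smaller value means a closer course. THBS2, POSTN and FBN2 could not enter the search because they were not tested in all lines. The closest gene to SPARC was TMSB4X (0.379), followed by THSD4 (0.386). The closest to CCDC80 was FRMD6 (0.482), followed by EHD2 (0.626), and the closest to FBN1 was TAGLN (0.490), followed by PHLDB2 (0.575). The closest to TNC was UPP1 (0.540), followed by SDC2 (0.775). For TGFBI it was NID2 (0.760), followed by BGN (0.922), and for FN1 ANGPTL2 (0.780), followed by LOXL1 (0.791). For THBS1 it was RP1-140K8.5 (0.904), followed by L1CAM (0.965). Within the group of 10, CCDC80 and FBN1 lay nearest to each other (0.749), and the nearest of the group to FN1 was TNC (1.04). The distances rest on 6 group means and are a description.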

How the data were processed

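The 10 genes, the further lists and the tests were chosen with earlier results of these data known. The authors deposited RSEM expected counts, going by the table names, for A673 and TC-32. They were rounded to whole numbers here. For TC-71 the authors deposited counts, attributed by the table name to Subread. Cutadapt 4.4, STAR 2.7.3, featureCounts, Subread 2.0.3 and limma 3.38.3, and the builds GRCh38 and hg38, are listed per the submitters' processing notes, with no role or order. The annotation release, strand setting and filters are not given in the sources used here. The line of the TC-32 and TC-71 columns rests on the table name. The line ES-5838 and the siERG RNA, both named in the labels, were not analysed here.

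Each table has 58381 rows. Rows that repeat an identifier for the Y copy of a gene were summed, leaving 58336 identifiers, of which 57754 were found in GENCODE release 44. In R 4.3.3, edgeR 4.0.16 was run with filterByExpr, TMM scaling and robust quasi-likelihood F-tests, per line and, for differences between lines, in 1 model of 6 groups. The Benjamini-Hochberg adjustment ran over all genes of a fit. Log2 fold changes are shrunken by a prior count of 0.125. Each SE is the absolute unshrunken coefficient divided by the square root of the quasi-likelihood F, not an SE taken from the fit. With few counts it can be too small. For THBS1 in TC-71 it was 0.151, while the log2 fold change ran from 7.28 to 8.24 with a library left out. CPM carry SD over 3 libraries. A floor of 3 counts is the limit that a count of 0 allows; it covers counting error only, since no molecular identifiers were used. Tables were read in Python 3.11.15.

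The genes named are the 10, FLI1, up to 3 per list with the largest absolute median log2 fold change over the lines among genes tested in all 3, and, for the 10, the 2 genes of closest course whose log2 CPM averaged 1 or more. The course used log2 CPM with 0.5 counts added. On simulated data with 200 genes changed 2-fold, the fits of TC-32, TC-71 and A673 recovered 92%, 90% and 93.5% of them. These fits held 16208, 17085 and 18427 genes. The interaction contrasts recovered 95.5% for TC-32 minus A673, 86% for TC-32 minus TC-71 and 82.5% for A673 minus TC-71. Recovery with as large a share of genes changed as was called in these libraries was not tested. No pair of replicates agreed within sampling noise: chi-square per degree of freedom was 2.46 or more in all 18 pairs. The alternatives changed the tool (DESeq2 1.42.0, limma-voom with limma 3.58.1), the scaling (RLE factors or library size alone) or the filter (none, or a mean count of 10 or more). Others were unrounded expected counts, the replicate number as a block, each library left out in turn, and the 12 libraries of the lines compared.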

Additional observations from a re-analysis of the deposited data

Results flagged for a closer look

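The effect of siFLI1 on each of the genes below differed between lines by the edgeR interaction test, at an adjusted p under 0.05, as did that on 62.1%, 53.6% and 51.7% of all genes in the 3 contrasts. Values are differences of log2 fold changes, the first line minus the second. Line cannot be told apart from knockdown depth, medium, the time given and, for TC-71, the counting tool.

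Between TC-32 and A673, FN1 differed by 0.56, THBS1 by 0.54, TGFBI by 1.78, CCDC80 by 2.49, FBN1 by 1.10 and FBN2 by 1.5, all with the larger rise in TC-32. TNC differed by -1.97 and SPARC by -0.34, with the larger rise in A673.

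Between TC-32 and TC-71, FN1 differed by -6.59, TNC by -5.06, THBS1 by -1.57, SPARC by -1.92, TGFBI by -2.73 and FBN1 by -1.26, with the larger rise in TC-71. CCDC80 differed by 2.12, with the larger rise in TC-32.

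Between A673 and TC-71, FN1 differed by -7.15, TNC by -3.09, THBS1 by -2.11, SPARC by -1.57, TGFBI by -4.51, CCDC80 by -0.37 and FBN1 by -2.36, each with the larger rise in TC-71.

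The THBS1 and TGFBI values rest on few control counts in TC-71. Without TC-71 siNeg replicate 1, THBS1 differed by -2.25 between TC-32 and TC-71 and by -2.80 between A673 and TC-71. Without TC-71 siNeg replicate 3, TGFBI differed by -3.71 and -5.49 in the same contrasts.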

How the results depend on the processing

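The number of genes called, the number of the 10 called and the order of the control levels kept their result under each alternative run (counts within 1.5 times of the reported one), except that the order of lines held for 9 of the 10 genes with library size alone, CCDC80 being the other. Of 803 values of single genes under alternatives, 796 kept their direction and side of the threshold. The exceptions were TNC in TC-32, which had -0.019 with no low-count filter and -0.034 to 0.025 when a library was left out, never past the threshold, and the POSTN difference between TC-32 and A673. That difference ran from -1.04 without TC-32 siNeg replicate 1 (edgeR adjusted p = 0.0367) to 0.54 without TC-32 siNeg replicate 2 (adjusted p = 0.507). The cause was not tested. Of 150 control levels, 107 moved by less than 1 SD. Same-numbered libraries were not paired in the main fits. The correlations of their deviations ran from -0.078 to 0.042, and those of libraries with other numbers from -0.074 to 0.059. These values cannot show whether the libraries were prepared in pairs. With the replicate block, 12422 genes were called in A673, 13033 in TC-32 and 12048 in TC-71, and 11777, 10098 and 9579 differed between TC-32 and A673, TC-32 and TC-71, and A673 and TC-71, and no call on the 10 genes changed. Depth limits POSTN, THBS2 and FBN2 in TC-71 most, where libraries held 0 to 22 counts of each.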

Other observations

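Genes listed on both X and Y were counted unevenly between tables. Of 45 such genes, 44 were at 0 in all 6 TC-71 libraries, 16 in TC-32 and 15 in A673. None of the 10 matrix genes is among them, and CD99 is.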
